A study of Mus musculus with 2 samples.

Results

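Chemokines and their receptors were examined in cultured mouse embryonic fibroblasts (MEFs), stromal cells that make connective tissue and are isolated from embryos. The set was taken by gene symbol. It holds every row of the deposited count table named as a Ccl, Cxcl, Cx3cl1 or Xcl1 ligand, as a Ccr, Cxcr, Cx3cr1 or Ccrl2 receptor, or as an atypical receptor Ackr1 to Ackr4. This gave 48 of 17260 genes, made up of 31 ligands and 17 receptors. The comparison has 1 library of C57BL/6 fibroblasts labelled Ahi1-/- and 1 library of C57BL/6 wild-type (WT) fibroblasts. Both came from embryos at embryonic day 13.5, and both cultures were in DMEM with 10% fetal bovine serum. The labels do not say how many embryos were pooled, at which passage RNA was taken, whether the mutation is a whole deletion, or whether any inflammatory agent was given. With 1 library per genotype there is no replicate, so every difference below compares these libraries and not the genotypes, and each interval covers counting error only. Which column belongs to which library was read from the heads CON (control) and EXP (experimental), and every direction rests on that reading.

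Chemokines are small secreted proteins that form gradients on the cell surface and matrix and guide leukocytes that carry the matching G protein-coupled receptors. Fibroblasts are known as producers of chemokines, whereas most of the receptors are carried by blood cells. CXC ligands with a Glu-Leu-Arg motif before the first cysteines attract neutrophils, most inflammatory CC ligands attract monocytes or eosinophils, interferon-induced CXC ligands attract T cells, and homeostatic ligands place cells in tissues without inflammation. Atypical receptors bind chemokines and clear them without G protein signalling.

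Both libraries were of similar depth. Totals were 20820756 expected counts in the library labelled Ahi1-/- and 19067504 in the WT library. Ahi1 itself had 370 counts in the library labelled Ahi1-/- and 410 in the WT library, a log2 ratio of -0.16 (95% counting interval -0.37 to 0.05), so the count of the targeted gene does not check the label. Fibroblast markers were detected in both libraries but differed widely. Their summed level over 12 genes was 25217 TPM in the library labelled Ahi1-/- and 11631 TPM in the WT library, where TPM is the authors' unit corrected for transcript length and library total. Of these 12 markers, 9 were at least 2-fold higher, 1 was lower and 2 were within 2-fold in the library labelled Ahi1-/-. Among all genes with 50 counts or more in either library, 16.0% were higher and 10.3% lower by that measure. Vim, a filament protein of mesenchymal cells, had 4710 TPM against 4546 TPM in WT, whereas Thy1, a surface marker of fibroblasts, had 1338 TPM against 16.3 TPM in WT, the matrix proteoglycan Lum 177 TPM against 3.74 TPM in WT, and the growth factor receptor Pdgfra 107 TPM against 13.3 TPM in WT. The part of this difference in the chemokine values was not tested. Markers of endothelium, over 8 genes, summed to 1.56 TPM in the library labelled Ahi1-/- and 2.21 TPM in WT.

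Inflammatory chemokine ligands for neutrophils and for monocytes made up most of the chemokine transcripts of both libraries. Their summed level was several-fold higher in the library labelled Ahi1-/- than in the WT library. For neutrophil ligands that difference lay mostly in 1 gene, Cxcl5, at 1450 TPM against 27.6 TPM in WT. Of the 48 genes, 36 were measured with at least 10 counts over both libraries, and 23 reached 50 counts in whichever library was higher. Among these 23, the library labelled Ahi1-/- was above WT by 2-fold or more in 12, against 16.0% of all 12075 genes with that minimum. It was below WT by 2-fold or more in 3, against 10.3% of all genes. All 15 of these genes were ligands, as were 21 of the 23. The median log2 ratio was 1.77 over the 23 genes and -0.04 over all genes. The minimum bears on that median, because 7 of the 23 reached 50 counts in the library labelled Ahi1-/- alone and 1 in the WT library alone. With 50 counts asked of both libraries, 6 of 15 genes were higher (against 9.45% of all genes) and 3 were lower (against 9.03%). The median log2 ratio over these 15 was then -0.10, near the -0.09 of all genes with that minimum. The higher ligands thus stood beside others that were near equal or lower, and they are described class by class.

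Summed over all 31 ligands, the level was 5438 TPM in the library labelled Ahi1-/- and 2011 TPM in the WT library, a ratio of 2.70. Neutrophil chemokines summed to 1853 TPM against 418 TPM in WT, and monocyte and eosinophil chemokines to 2972 TPM against 816 TPM in WT. Lymphocyte chemokines went the other way, with 228 TPM in the library labelled Ahi1-/- and 406 TPM in the WT library. Homeostatic chemokines were level in sum, at 385 TPM in the library labelled Ahi1-/- and 371 TPM in WT. As shares of the ligand total, neutrophil and monocyte classes took 34.1% and 54.6% in the library labelled Ahi1-/-, against 20.8% and 40.6% in WT. Just 3 ligands, Ccl2, Cxcl5 and Ccl7, carried 80.1% of the total in the library labelled Ahi1-/- and 36.0% in the WT library. In bulk RNA of this kind, a change in the number of cells making a transcript and a change in RNA per cell cannot be told apart.

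**Figure D1:**
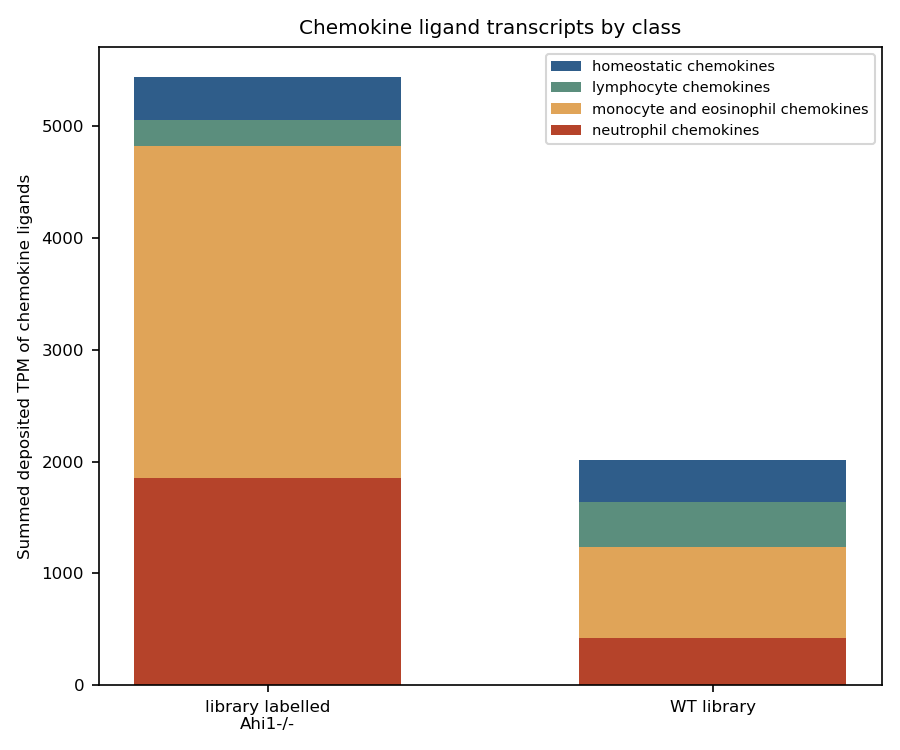
Summed deposited TPM of the 31 chemokine ligands (vertical axis) in the library labelled Ahi1-/- (left bar) and the WT library (right bar), stacked by class. The left bar reaches 5438 TPM and the right bar 2011 TPM, and the neutrophil and monocyte segments are the ones that are much taller on the left.

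The neutrophil class differed member by member. Cxcl5, a Glu-Leu-Arg ligand that acts through Cxcr2, had 21317 counts in the library labelled Ahi1-/- and 415 in the WT library. On the length-corrected scale this was 1450 TPM in the library labelled Ahi1-/- and 27.6 TPM in WT, so that Cxcl5 ranked 114th of all genes in the library labelled Ahi1-/- and 5493rd in WT. The log2 ratio was 5.67 (95% counting interval 5.53 to 5.81). Cxcl1, the related ligand known in mouse as KC, was the most abundant neutrophil chemokine of the WT library and hardly differed. It had 3061 counts (369 TPM) in the library labelled Ahi1-/- and 3245 counts (382 TPM) in WT, with a log2 ratio of -0.10 (-0.17 to -0.03). Cxcl5 was thus 3.93 times the level of Cxcl1 in the library labelled Ahi1-/- and 0.0721 times it in the WT library.

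Cxcl2 and Cxcl3, which share the receptor Cxcr2, were higher from a low base. Cxcl3 had 222 counts (25.1 TPM) in the library labelled Ahi1-/- and 50 counts (5.50 TPM) in WT, a log2 ratio of 2.14 (1.69 to 2.61). Cxcl2 had 71 counts (7.51 TPM) in the library labelled Ahi1-/-, against 20 counts (2.07 TPM) in WT, a log2 ratio of 1.81 (1.08 to 2.61). Cxcl15, which is known from lung epithelium, had 8 counts in the library labelled Ahi1-/- and 3 in WT, too few for a direction. The deposited counts of Cxcl2, Cxcl3, Cxcl5 and Cxcl15 were not whole numbers in at least 1 library, while those of Cxcl1 were whole. Expected counts can be fractional where reads match several similar sequences.

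**Figure D2:**
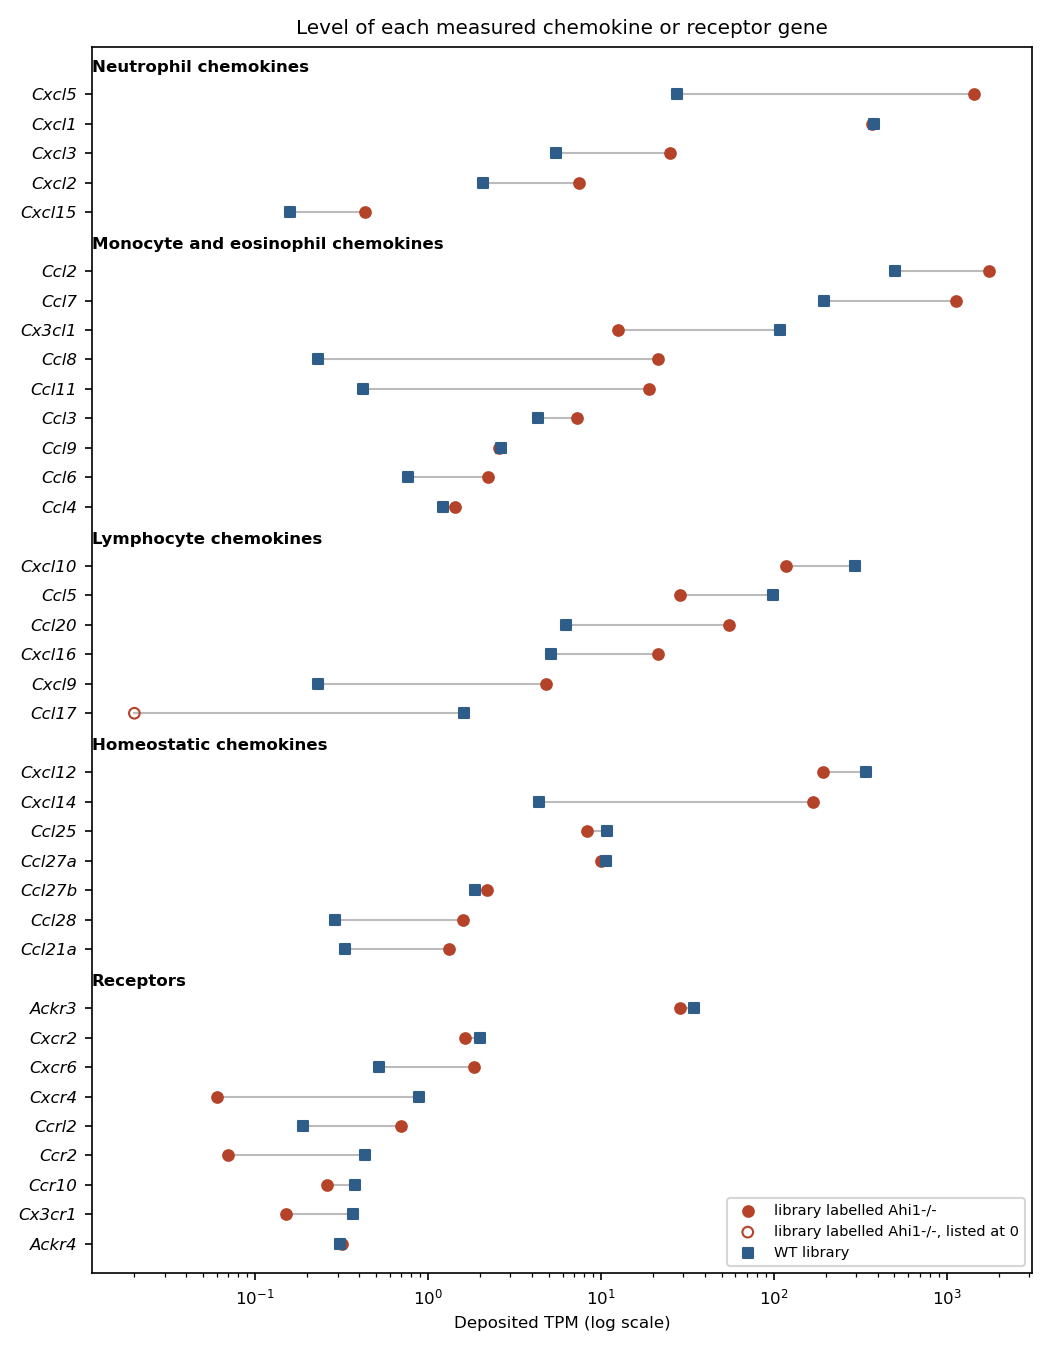
Deposited TPM (horizontal axis, log scale) of the 36 measured genes in the library labelled Ahi1-/- (circles) and the WT library (squares), grouped by class. Cxcl5 lies at 1450 against 27.6 TPM, Cxcl1 at 369 against 382 TPM, and receptors other than Ackr3 lie below 2 TPM in both libraries. The open circle is Ccl17, listed at 0.

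Promoter sequence is shown for the ligands whose upstream 250 bases hold a match to the NF-kappaB consensus decamer, because NF-kappaB is the textbook inducer of neutrophil chemokines and these genes differed in direction. RefSeq promoters (assembly GRCm38.p6) were found for 36 of the 48 genes, and 8 of the 36 genes (22.2%) held the decamer on either strand, against 4.46% of 27025 genes counted in the same way. A gene counts once if any of its promoters holds the match. Ligands with no promoter in that table, and so not searched, were Ccl2, Ccl4, Ccl5, Ccl7, Ccl11, Ccl24, Cxcl5 and Cxcl16. Of the 8 genes with a match, the 6 ligands are printed 5′ to 3′ on the strand of the gene, with the match in capitals and up to 30 bases on each side. The sites start 71, 97, 73, 80 and 35 bases before the transcript start for Cxcl1, Cxcl2, Cxcl3, Ccl20 and Ccl9, and 159 and 103 bases before it for Cxcl10.
Cxcl1 (chr5:90891144-90891214, plus strand): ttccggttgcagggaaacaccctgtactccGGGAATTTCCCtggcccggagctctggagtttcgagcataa
Cxcl2 (chr5:90903772-90903842, plus strand): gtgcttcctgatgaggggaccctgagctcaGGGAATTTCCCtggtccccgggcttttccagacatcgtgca
Cxcl3 (chr5:90785998-90786068, plus strand): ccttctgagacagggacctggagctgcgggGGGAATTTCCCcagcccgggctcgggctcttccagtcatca
Ccl20 (chr1:83116656-83116725, plus strand): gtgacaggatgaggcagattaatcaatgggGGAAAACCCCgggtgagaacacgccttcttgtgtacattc
Ccl9 (chr11:83578637-83578701, minus strand): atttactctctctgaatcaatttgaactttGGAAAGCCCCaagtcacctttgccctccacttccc
Cxcl10 (chr5:92348953-92349078, minus strand): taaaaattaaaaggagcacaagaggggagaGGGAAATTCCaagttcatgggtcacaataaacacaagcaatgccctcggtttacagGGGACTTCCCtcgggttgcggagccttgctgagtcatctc

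In Cxcl1, Cxcl2 and Cxcl3 the capitals are the same 11 letters and hold the decamer on both strands, overlapping by all but 1 base. Their log2 ratios were -0.10, 1.81 and 2.14, a near-equal gene beside 2 higher ones. Ccl20 was higher, Ccl9 near equal and Cxcl10 lower. The remaining matches were in Ccrl2 and Ccr6, which had at most 12 counts in either library. A match describes the letters of these windows and does not show that the factor binds there.

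Among ligands for monocytes and eosinophils, the members of the monocyte chemoattractant family that reached 50 counts, Ccl2, Ccl7 and Ccl8, were higher. Ccl2, the main ligand of Ccr2 on monocytes, was the most abundant chemokine of both libraries, with 12236 counts (1767 TPM) in the library labelled Ahi1-/- and 3562 counts (502 TPM) in WT. Its log2 ratio was 1.77 (1.71 to 1.82). Ccl7, a ligand of Ccr1, Ccr2 and Ccr3, had 7822 counts (1137 TPM) in the library labelled Ahi1-/-, against 1373 counts (194.9 TPM) in WT, a log2 ratio of 2.50 (2.41 to 2.58). By TPM among all genes, Ccl2 ranked 87th in the library labelled Ahi1-/- and 266th in WT, and Ccl7 138th against 760th in WT.

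Ccl8 and Ccl11 were close to absent in the WT library. Ccl11, or eotaxin, which attracts eosinophils through Ccr3, had 178 counts (19.0 TPM) in the library labelled Ahi1-/- and 4 counts (0.42 TPM) in WT. Ccl8, a further ligand of the monocyte chemoattractant family, had 90 counts (21.3 TPM) in the library labelled Ahi1-/- and 1 count (0.23 TPM) in WT, with an interval on the log2 ratio of 3.96 to 11.80. Ccl12, a mouse ligand of Ccr2, had 5 counts in the library labelled Ahi1-/- and 0 in WT.

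These 5 genes are neighbours on chromosome 11 (assembly GRCm38.p6, in the order Ccl2, Ccl7, Ccl11, Ccl12 and Ccl8). All 4 that reached 50 counts were higher, Ccl11 and Ccl8 reaching it in the library labelled Ahi1-/- alone. Of the non-chemokine genes of that chromosome 14.4% were higher and 7.22% lower. Their median log2 ratio was 0.12. A further group on the same chromosome held Ccl5, Ccl9, Ccl6, Ccl3 and Ccl4. Just 2 of them, Ccl5 and Ccl9, reached that minimum, and neither was at least 2-fold higher. Ccl6 was past 2-fold but did not reach the minimum, so the groups cannot be compared evenly. Ccl9, a ligand of Ccr1, had 70 counts in the library labelled Ahi1-/- and 73 in WT, a log2 ratio of -0.07 (-0.57 to 0.42). Ccl3, which encodes MIP-1 alpha, had 49 counts in the library labelled Ahi1-/-, against 30 in WT (log2 0.69, 0.01 to 1.40). Ccl6 had 28 counts in the library labelled Ahi1-/-, against 10 in WT (log2 1.47, 0.39 to 2.68), and Ccl4, which encodes MIP-1 beta, had 8 counts in each. The neighbouring groups were defined by starts within 500 kb of the next gene of the set, after the values were known.

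Unlike the 4 higher genes of its class and the near-equal Ccl9, Cx3cl1, or fractalkine, was lower. It encodes a chemokine tethered to the cell membrane, whose receptor Cx3cr1 is carried by patrolling monocytes and microglia. It had 355 counts (12.5 TPM) in the library labelled Ahi1-/-, against 3174 counts (109 TPM) in WT, 9.02-fold lower, with a log2 ratio of -3.17 (-3.34 to -3.01). It was the lowest log2 ratio among the 23 genes with at least 50 counts. Cx3cl1 lies on chromosome 8 between Ccl22 and Ccl17, and the other genes of that chromosome had a median log2 ratio of -0.40, with 17.1% of them at least 2-fold lower. The part of that shift in the difference was not tested. Ccl17 had 0 counts in the library labelled Ahi1-/- and 14 in WT, 4.71-fold lower when the 0 is set to the floor of 3 counts. The nearer bound of its counting interval is 3.35-fold lower. Ccl22 had 0 counts in the library labelled Ahi1-/- and 1 in WT, and so did Ccl24. The 250 bases before the start of Cx3cl1, as the gene that was lower by the widest margin, are printed below. Capitals mark matches to the letters of the GC box (GGGCGG) and TATA box (TATAAA). They begin 27 and 6 bases before the start, and whether either is a working element was not tested.
Cx3cl1 (chr8:94771930-94772179, plus strand): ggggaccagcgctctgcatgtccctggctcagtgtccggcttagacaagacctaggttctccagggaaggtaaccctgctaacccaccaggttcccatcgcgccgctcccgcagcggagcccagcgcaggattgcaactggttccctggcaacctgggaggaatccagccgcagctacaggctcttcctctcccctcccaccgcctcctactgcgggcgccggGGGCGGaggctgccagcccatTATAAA
At any position of the 250 bases and on either strand, GC box letters were found in 8 of the 36 genes with a promoter (22.2%, against 35.4% of all genes with a promoter). TATA box letters were found in 13 (36.1%, against 14.3%). No NF-kappaB decamer is among the printed letters of Cx3cl1.

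Lymphocyte chemokines split into both directions, and the 2 most abundant of the WT library were lower. Cxcl10, an interferon-induced ligand of Cxcr3 on activated T cells, had 1137 counts (118 TPM) in the library labelled Ahi1-/- and 2901 counts (294 TPM) in WT. It was 2.57-fold lower, with a log2 ratio of -1.36 (-1.46 to -1.26). Ccl5, or RANTES, which attracts T cells and monocytes, had 127 counts (28.8 TPM) in the library labelled Ahi1-/- and 447 counts (98.8 TPM) in WT, 3.55-fold lower (log2 -1.83, -2.12 to -1.54).

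Cxcl9 shares the receptor Cxcr3 with Cxcl10 and is its neighbour on chromosome 5, yet was higher. It had 126 counts (4.83 TPM) in the library labelled Ahi1-/- and 6 counts (0.23 TPM) in WT, a log2 ratio of 4.38 (3.22 to 5.85). Even so, Cxcl9 remained far below Cxcl10 in level in both libraries. Ccl20, the ligand of Ccr6 on Th17 cells and dendritic cells, had 381 counts (55.4 TPM) in the library labelled Ahi1-/- and 44 counts (6.25 TPM) in WT, 8.58-fold higher (log2 3.10, 2.65 to 3.59). Cxcl16, a membrane-bound ligand of Cxcr6, had 281 counts (21.3 TPM), against 70 counts (5.17 TPM) in WT, 3.98-fold higher (log2 1.99, 1.61 to 2.39). The interferon response core GAAANNGAAA was found on either strand in 2 of the 36 genes (5.56%), against 3.46% of all genes with a promoter. These were Cxcl10 and Cxcl14, which went in opposite directions.

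Homeostatic chemokines had 2 genes higher, 0 lower and 4 within 2-fold among 6 with at least 50 counts, while 16.0% of all genes were higher and 10.3% lower. Cxcl14, a ligand expressed in epithelium and in some fibroblasts, had 2745 counts (168 TPM) in the library labelled Ahi1-/- and 72 counts (4.36 TPM) in WT. It was 37.8-fold higher, with a log2 ratio of 5.24 (4.90 to 5.60). The 250 bases before its start are printed because this gene had the largest ratio of its class, with the interferon response core in capitals.
Cxcl14 (chr13:56296552-56296801, minus strand): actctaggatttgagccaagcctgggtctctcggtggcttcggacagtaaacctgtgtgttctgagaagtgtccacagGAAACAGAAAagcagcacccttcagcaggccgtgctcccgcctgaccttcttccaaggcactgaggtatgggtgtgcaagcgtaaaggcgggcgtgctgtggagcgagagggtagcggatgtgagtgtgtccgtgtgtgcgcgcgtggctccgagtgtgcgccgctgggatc
AP-1 matches (TGANTCA, either strand) were absent from this window and present in 5 of the 36 genes (13.9%, against 7.82% of all genes with a promoter).

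Cxcl12, or SDF-1, the ligand of Cxcr4 that retains stem cells in their niches, is typical of stromal cells and was high in both libraries. It had 4221 counts (193 TPM) in the library labelled Ahi1-/- and 8244 counts (342 TPM) in WT. At 1.97-fold lower (log2 -0.98, -1.03 to -0.93) it lay just inside the 2-fold bound, and scaling to total counts instead of TMM put it at -1.09, past the bound. The log2 ratio of the deposited TPM values was smaller in size, at -0.82. For Cxcl12 the ratio of counts to TPM differed between the libraries by -7.17%, relative to the median gene. Cxcl12 made up 3.56% of ligand TPM in the library labelled Ahi1-/- and 17.0% in WT, while Cxcl14 made up 3.09% against 0.217% in WT.

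The other homeostatic ligands were low. Ccl28, which attracts cells carrying Ccr10, had 54 counts in the library labelled Ahi1-/- and 10 in WT (log2 2.42, 1.43 to 3.56), so it reached the minimum in the library labelled Ahi1-/- alone. Ccl25, a ligand of Ccr9 known from thymus and gut, had 78 counts in the library labelled Ahi1-/- and 114 in WT (log2 -0.56, -0.99 to -0.13). Ccl27a had 53 counts against 60 in WT, and Ccl27b 55 counts against 47 in WT. These 2 genes, whose product attracts T cells to skin, are near-identical copies with fractional counts, so reads may have been split between them. Ccl21a, also of a multi-copy group, had 10 counts against 3 in WT, and the B cell chemokine Cxcl13 had 1 count against 0 in WT.

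**Figure D3:**
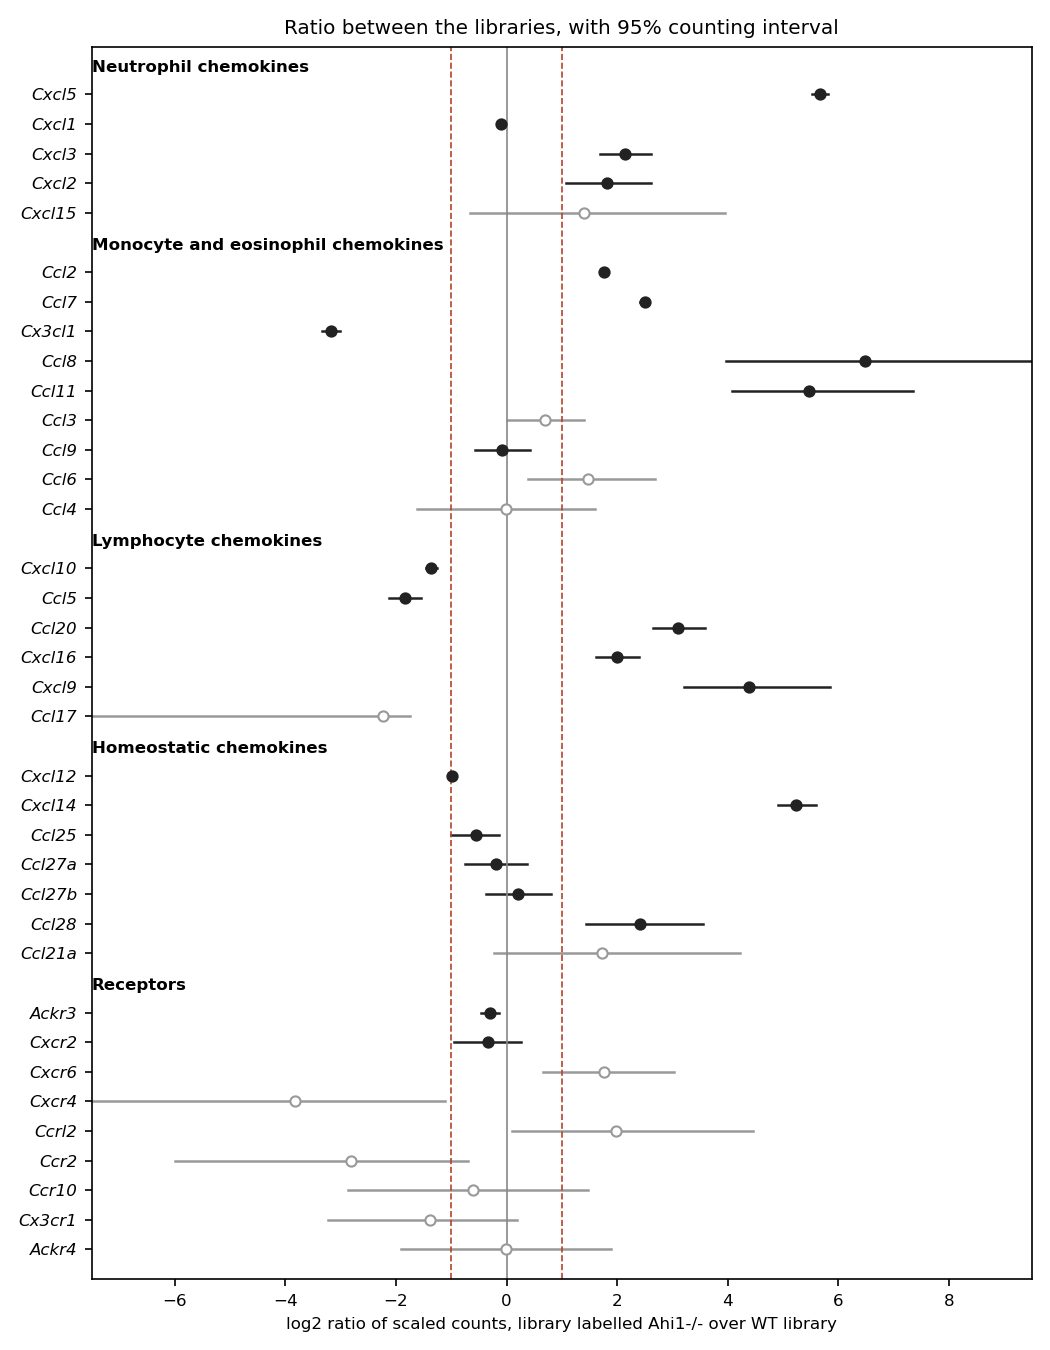
Log2 ratio of scaled counts (horizontal axis), library labelled Ahi1-/- over WT library, for the 36 measured genes by class, with 95% counting intervals. Filled points reached 50 counts in either library, open points did not, and dashed lines mark 2-fold. The intervals of Ccl8, Ccl17 and Cxcr4 run past the axis. Cxcl5 at 5.67 and Cx3cl1 at -3.17 lie far outside the 2-fold lines.

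Receptors were low in both libraries. Just 2 of them, Ackr3 and Cxcr2, reached 50 counts, and neither was 2-fold apart. Summed over all 17, the level was 34.7 TPM in the library labelled Ahi1-/- and 40.3 TPM in the WT library. Most of that was Ackr3, formerly Cxcr7, an atypical receptor that takes up Cxcl12. Ackr3 had 529 counts (28.9 TPM) in the library labelled Ahi1-/- and 645 counts (34.5 TPM) in WT, a log2 ratio of -0.30 (-0.47 to -0.13). Cxcr2, the signalling receptor for Cxcl1, Cxcl2, Cxcl3 and Cxcl5, had 44 counts in the library labelled Ahi1-/- and 55 in WT (log2 -0.33, -0.94 to 0.26). The difference in Cxcl5 thus stood beside no detectable difference in the count of its receptor at this depth.

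The rest of the receptors had at most 31 counts. Cxcr6, the receptor of Cxcl16, had 31 counts in the library labelled Ahi1-/- and 9 in WT (log2 1.77, 0.67 to 3.03). Cxcr4, the signalling receptor of Cxcl12, had 1 count in the library labelled Ahi1-/- and 14 in WT (log2 -3.82, -9.22 to -1.10). Ccr2, the receptor of Ccl2 and Ccl7, had 2 counts against 14 in WT (log2 -2.82, -6.00 to -0.70). Cx3cr1 had 5 counts against 13 in WT (log2 -1.39, -3.23 to 0.19), so the interval includes 0.

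Ccrl2, an atypical receptor that binds chemerin, had 12 counts in the library labelled Ahi1-/- and 3 in WT (log2 1.99, 0.10 to 4.45). Ackr4, which scavenges Ccl19 and Ccl21, had 6 counts in each library, and Ccr10, the receptor of Ccl28, had 4 counts against 6 in WT. Ackr1, Ccr1, Ccr4, Ccr6, Ccr7, Ccr9 and Cxcr5 were under 10 counts in sum, with at most 5 counts each in a library.

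Markers of leukocytes, the cells that usually carry these receptors, were low and mixed. Over 19 leukocyte genes in the table, the summed level was 70.8 TPM in the library labelled Ahi1-/- and 72.6 TPM in the WT library. Of the 7 with at least 50 counts, 2 were higher and 3 lower, against 16.0% and 10.3% of all genes. Ptprc, the pan-leukocyte phosphatase CD45, had 10 counts in the library labelled Ahi1-/- and 23 in WT. Lyz2, lysozyme of myeloid cells, had 315 counts against 96 in WT (log2 1.70, 1.37 to 2.05). Cd14 was lower, at 85 counts against 199 in WT (log2 -1.24, -1.62 to -0.87), as was Cd79a, at 8 against 66 in WT (log2 -3.06, -4.33 to -2.00). Csf1r had 76 counts against 109 in WT, and Cd68 had 56 against 50 in WT. Below 50 counts, Adgre1 had 39 against 4 in WT and Itgam 39 against 12 in WT. Other myeloid markers below 50 counts went the other way, with Fcer1g at 15 against 24 in WT. Fcgr3 had 13 against 22 in WT and Tyrobp 13 against 18 in WT. Neutrophil markers differed in direction. S100a9 had 2 counts against 83 in WT (log2 -5.39, -8.46 to -3.49), whereas Ly6g had 56 against 11 in WT (log2 2.34, 1.39 to 3.42) and S100a8 17 against 6 in WT. Among the genes counted above as higher or lower, Ly6g reached 50 counts in the library labelled Ahi1-/- alone. Cd79a and S100a9 reached it in the WT library alone. Kit, a marker of mast and progenitor cells, had 3 counts against 0 in WT. Markers of epithelium and mesothelium, over 8 genes, summed to 43.5 TPM in the library labelled Ahi1-/- and 18.9 TPM in WT, with Krt8 at 421 counts against 203 in WT and Epcam at 128 against 40 in WT. The part of any such cells in the chemokine values was not tested.

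Genes of the pathways that control chemokine transcription and transcript stability were mostly within 2-fold. The list has 41 genes for the interleukin 1, TNF, interleukin 17 and Toll-like receptors, the shared cytokine receptor subunit Il6st, adaptors and transcription factors. It also includes factors that restrain the response, such as Nfkbia and Tnfaip3, and proteins that bind transcripts and set their stability, such as Zfp36, Zc3h12a and Elavl1. Of the 41, 2 were higher by 2-fold or more and 4 were lower, all in comparison with WT. Among all genes 16.0% were higher and 10.3% lower by that measure. The median log2 ratio of the list was -0.13, beside -0.04 over all genes. Il1r1, the signalling receptor of interleukin 1, had 4161 counts in the library labelled Ahi1-/- and 1585 in WT (2.60-fold higher, log2 1.38, 1.30 to 1.46). Tlr2, a receptor of bacterial lipopeptides, had 512 counts against 2700 in WT (log2 -2.41, -2.55 to -2.27). Nfkb2, which encodes the p100 and p52 subunits of NF-kappaB, had 1937 counts against 7493 in WT (log2 -1.96, -2.04 to -1.89). Irf1, a transcription factor of the interferon response, had 587 counts against 1417 in WT (log2 -1.28, -1.43 to -1.14). The other higher gene was Stat3 and the other lower gene Nfkb1. Among the most abundant, Cebpb had 362 TPM against 385 TPM in WT, and the inhibitor Nfkbia had 145 TPM against 223 TPM in WT.

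Genes that carry the signal of chemokine receptors had 2 higher and 3 lower of 25 with at least 50 counts, against 16.0% and 10.3% of all genes. The median log2 ratio was 0.22 beside the -0.04 of all genes. Gnai1, an inhibitory G protein alpha subunit, had 579 counts in the library labelled Ahi1-/- and 8 in WT (71.7-fold higher, log2 6.16, 5.18 to 7.38). It reached 50 counts in the library labelled Ahi1-/- alone. Rgs16, which ends G protein signalling, had 1923 counts against 123 in WT (log2 3.95, 3.69 to 4.23). The arrestins that turn off and internalise receptors were lower. Arrb2 had 225 counts in the library labelled Ahi1-/- and 809 in WT (log2 -1.86, -2.08 to -1.64), and Arrb1 419 against 1288 in WT (log2 -1.63, -1.80 to -1.47). Gnai2, the more abundant alpha subunit, was within 2-fold, at 789 TPM in the library labelled Ahi1-/- and 658 TPM in WT.

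Genes for the heparan sulfate that holds chemokines on the surface, and for proteases that trim them, had 8 of 19 higher (42.1%, against 16.0% of all genes) and 1 lower (5.26%, against 10.3%) in the library labelled Ahi1-/-. The median log2 ratio was 0.46, against the same -0.04. Hs6st1, a heparan sulfate sulfotransferase, had 3097 counts in the library labelled Ahi1-/- and 791 in WT (log2 1.96, 1.84 to 2.07). Gpc1, the proteoglycan glypican 1, had 4177 counts against 1224 in WT (log2 1.76, 1.67 to 1.85). Fap, a fibroblast protease, had 205 counts against 32 in WT (log2 2.67, 2.12 to 3.25), and the carboxypeptidase Cpm 55 against 10 in WT (log2 2.45, 1.46 to 3.58). Dpp4, which cleaves Cxcl12 and other chemokines at the amino end, was the lower gene, with 25 counts against 61 in WT (log2 -1.30, -2.03 to -0.61). It was not lower past 2-fold by the nearer bound of its counting interval. Of the 12 fibroblast markers given above, 9 were higher and 1, S100a4, was lower. Any link between those markers and this list was not tested.

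**Figure D4:**
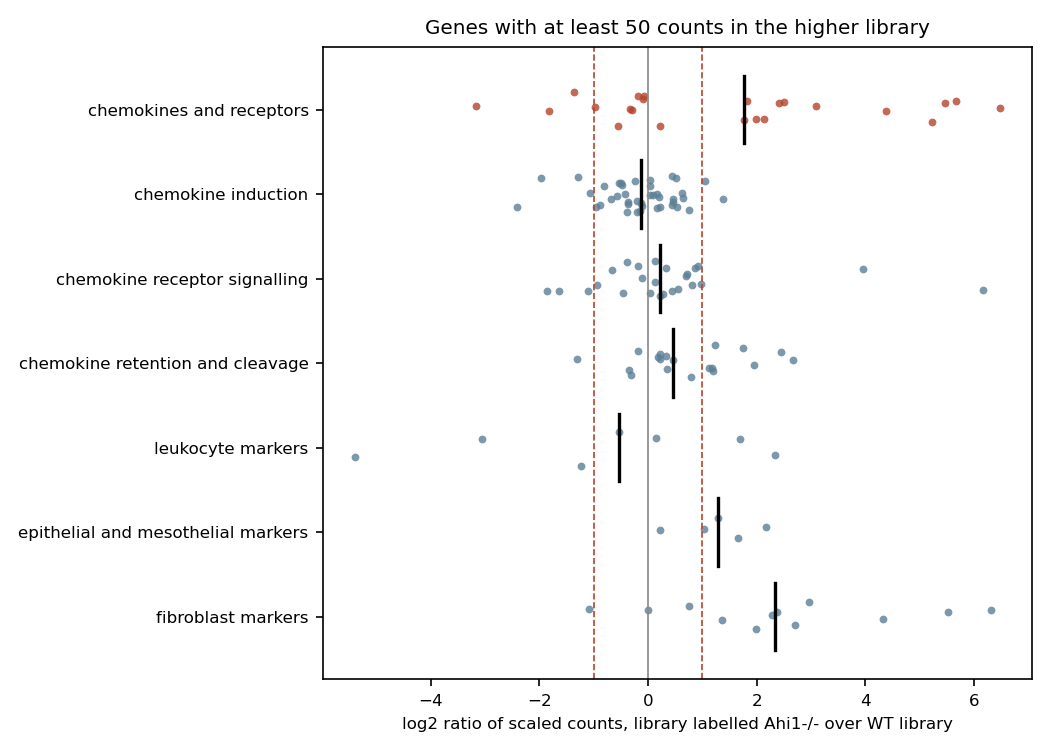
Log2 ratio of scaled counts (horizontal axis), library labelled Ahi1-/- over WT library, for genes that reached 50 counts in either library, by list. Each point is a gene, the black bars are medians and the dashed lines mark 2-fold. The chemokine set has points on both sides and a median of 1.77, a median that falls to -0.10 when both libraries must reach 50 counts. The induction list is centred at -0.13.

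A second table deposited by the authors lists FPKM values, another length-corrected unit, for 3872 genes. It holds 17 of the 48 genes. They include all 15 that were at least 2-fold apart by counts, together with Ccl17 and Cxcr4. By FPKM 12 of the 17 were higher and 5 were lower in this comparison, and the 16 with a value in both libraries had the same sign as by counts. Cxcl5 was at 637 FPKM against 13.5 FPKM in WT, and Cx3cl1 at 5.51 FPKM against 53.8 FPKM in WT. The smallest log2 difference of any gene in that table was 1.00, so it lists no gene within 2-fold, and it gives the same libraries in another unit.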

How the data were processed

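RNA from 1 culture labelled Ahi1-/- and 1 WT culture was sequenced as DNBSEQ libraries from 1 ug of total RNA, per the labels' protocols. The authors deposited expected counts and TPM for 17260 genes, and FPKM for 3872, per the file headers. Per the submitters' processing notes, the tools were RSEM 1.2.12, Bowtie2 2.2.5 and HISAT2 2.0.4 and the build mm8, with no roles stated. For annotation, strand and filters, nothing is stated. All 6 columns of values were used.

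Expected counts were rounded to whole numbers. Libraries were scaled by TMM (edgeR 4.0.16, R 4.3.3) to effective sizes 0.01 apart on the log2 scale. Ratios are the library labelled Ahi1-/- over WT, with exact Clopper-Pearson 95% intervals on the share of counts in each library, which cover counting error only. A library at 0 was set to a floor of 3 counts (0.150 CPM in the library labelled Ahi1-/-, 0.151 CPM in WT). Calls needed 2-fold and 50 counts in the higher library. No test or p-value was possible with 1 library per genotype. The calculation was tested on simulated data. Python 3.11.15, numpy 2.4.6, pandas 2.3.3, scipy 1.17.1 and matplotlib 3.10.9 were used.

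Every gene of the set with at least 10 counts over both libraries is described, and from each pathway list the 4 largest absolute log2 ratios of those that met the 50-count minimum for calls. Stat3, Nfkb1, Dpp4 and the marker genes given outside that rule were named after their values were seen. For some genes of the set and lists, values are not reported here. Members and lists were chosen with earlier results of these data known. Chromosomes and promoters come from RefSeq, assembly GRCm38.p6, a later build than mm8. It held 17210 of the 17260 gene identifiers. Alternatives covered scaling (DESeq2 1.42.0 size factors, total counts, upper quartile, deposited TPM), the minimum count, the fold bound and the floor.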

Additional observations from a re-analysis of the deposited data

How the results depend on the processing

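No paired analysis was possible because each genotype had 1 library. The 12 higher and 3 lower genes of the set remained so under DESeq2 size factors, upper-quartile scaling, deposited TPM and the nearer interval bound, and total counts (median shift of all genes -0.11) added Cxcl12 to the lower ones. The minimum count mattered more. The higher genes numbered 16 of 32 at 10 counts, 17 of 48 with no minimum and 7 of 13 at 200 counts. They numbered 6 of 15 with 50 counts in both libraries, a setting chosen after seeing the data. The lower genes numbered 7 at 10 counts, 9 with no minimum, and 3 at 200 counts or with 50 counts in both libraries. The median log2 ratio was 1.08 at 10 counts, 0.10 with no minimum and -0.10 with 50 counts in both libraries. For monocyte and eosinophil chemokines it was 1.62 at 10 counts, 1.77 at 200 and 1.10 with no minimum, and for lymphocyte chemokines 0.31 under each. The homeostatic median of 0.01 has no stable sign. Of the 41 induction genes, higher ones numbered 1 with total counts or the nearer interval bound, 0 at 3-fold and 5 at 1.5-fold. Lower ones numbered 2 at 3-fold and 8 at 1.5-fold. Of the 25 receptor signalling genes with 50 counts, 4 were higher with deposited TPM and 8 at 1.5-fold. Higher ones also numbered 4 at 10 counts or with no minimum. Lower ones numbered 5 at 10 counts or 1.5-fold and 6 with no minimum. Higher retention genes numbered 4 of 19 at 3-fold, and lower ones 0 at 200 counts, at 3-fold or by the nearer bound. Beside these lists, the shares of all genes higher and lower were 10.8% and 4.22% at 3-fold, and 23.6% and 21.6% at 1.5-fold. They were 14.7% and 12.7% with total counts, 13.3% and 7.11% by the nearer bound, and 16.6% and 9.61% with deposited TPM. By minimum count, the shares were 19.4% and 11.7% at 10 counts and 12.6% and 9.53% at 200 counts. With no minimum they were 18% and 12%. The shares with 50 counts in both libraries are given above. Among single genes, total counts moved Cxcl12, Cxcl10, Ccl2, Ccl7 and Cxcl1 beyond their counting intervals, by the shift given above, with no change of sign.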

Other observations

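Some relatives of the chemokines carry symbols outside the rule used above. Ppbp, which encodes the neutrophil chemokine Cxcl7 and is known from platelets, had 367 counts (38.8 TPM) in the library labelled Ahi1-/- and 15 counts (1.55 TPM) in WT. This is 24.2-fold higher, with a log2 ratio of 4.60 (95% counting interval 3.86 to 5.45). The platelet chemokine Pf4 had 4 counts in the library labelled Ahi1-/- and 8 in WT. Xcr1, a receptor of cross-presenting dendritic cells, had 29 counts against 19 in WT (log2 0.60, -0.29 to 1.51). Mif, a cytokine that can signal through Cxcr2 and Cxcr4, was above every chemokine in level and near equal, at 2228 TPM in the library labelled Ahi1-/- and 2588 TPM in WT. Cklf, a chemokine-like factor, had 110 counts against 146 in WT (log2 -0.42, -0.79 to -0.05).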
